A study of Mus musculus with 12 samples.

Results

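The genes described here are the cytokines, chemokines and receptors of a mouse aorta RNA sequencing table, taken by symbol: every gene whose name began as a chemokine ligand or receptor (Ccl, Cxcl, Ccr, Cxcr, Ackr), an interleukin or its receptor (Il followed by a digit), or a TNF, interferon, colony-stimulating factor or TGF-beta family name. That rule matched 35 symbols, and 2 of them, Ccl8 and Cxcl10, are left out by its own terms. The remaining 33 genes are members of the 3532 genes in the table. They comprise 12 chemokine ligands counted with a pseudogene copy, 2 chemokine receptors, 6 interleukins, 6 interleukin receptors, 2 TNF superfamily ligands, 2 TNF receptors, the TNF-induced gene Tnfaip3, the interferon Ifng and Tgfb1i1. By symbol and not by function, Tgfb1i1 is a member: its product, Hic-5, is a focal adhesion adaptor of smooth muscle and not a cytokine.

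All animals were mice and all RNA came from aorta. WT libraries were of WT genotype on a normal diet for 12 weeks. HFD libraries were of WT genotype on a high-fat diet with 60% of energy as fat, also for 12 weeks. HAPN libraries carried the same genotype and diet labels as HFD, and the sources used here do not give what sets HAPN apart. HSAPN libraries were labelled APPL1 knockdown on the high-fat diet. How and in which cells APPL1 was knocked down, and the age and sex of the mice, are likewise not stated there, and Appl1 itself was not analysed here. Since the 2 files deposited for the first HFD replicates hold the same values, they count as a single library (HFD replicate 1), and 11 libraries were distinct: 3 in WT, 2 in HFD, 3 in HAPN and 3 in HSAPN. Nothing in the labels says that replicates are separate animals, so p-values measure only the spread between these samples.

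Chemokines are small secreted proteins that bind G protein-coupled receptors on leukocytes and draw them to sites of inflammation. Atypical receptors take chemokines up without classical G protein signalling. Interleukins, interferons and TNF family proteins act through receptors on leukocytes, endothelium and smooth muscle. In the vessel wall they are known for recruiting monocytes and T cells on high-fat feeding. Most of them come from leukocytes, which are a small share of an aorta. In bulk RNA, fewer cells of a type and less RNA per cell cannot be told apart.

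The table holds part of the transcriptome, 12.0 to 17.6% of the reads of a library at 15660000 to 17880000 reads, and it holds 30 of the 219 annotated protein-coding genes of these families (13.7%, against 12.1% of all protein-coding genes). Ccl2, Cxcl12, Il1b, Il6, Tnf, Csf1r, Tgfb1 and most other well-known members were therefore not analysed here. Values are FPKM, which scale reads by transcript length and library depth. A gene was tested when it reached 1 FPKM in at least 3 libraries, which 18 of the 33 members and 1659 genes of the table did. Contractile smooth muscle genes summed to 251 to 2895 FPKM over libraries (9 of 10 listed genes in the table). Their sum was highest in WT replicate 2, where an airway gene was highest too, and which tissue they came from was not tested. Endothelial markers were not analysed here. Genes of other tissues varied widely over the 11 libraries: the airway gene Bpifa1 ran from 2.81 to 10730 FPKM, the heart muscle genes Tnnt2 and Tnni3 together from 7.02 to 243 FPKM, and 7 red cell genes from 412 to 4890 FPKM.

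No member passed the test in any comparison after correction for all genes tested. The levels are described as a small set with higher means in the high-fat libraries than in WT at an unadjusted p under 0.05 (Tnfsf9, Ccl6, Tnfrsf25, Il33), a chemokine and receptor set whose values followed single libraries (Ccl3, Ccl4, Ccl5, Il2rb, Il10ra), and a set that barely varied (Il11ra1, Il15ra). WT replicate 1 was the lowest library for 12 of the 18 tested members, where it was lowest for 28.9% of all genes tested. The heat map of member values by library shows these blocks.

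**Figure D1:**
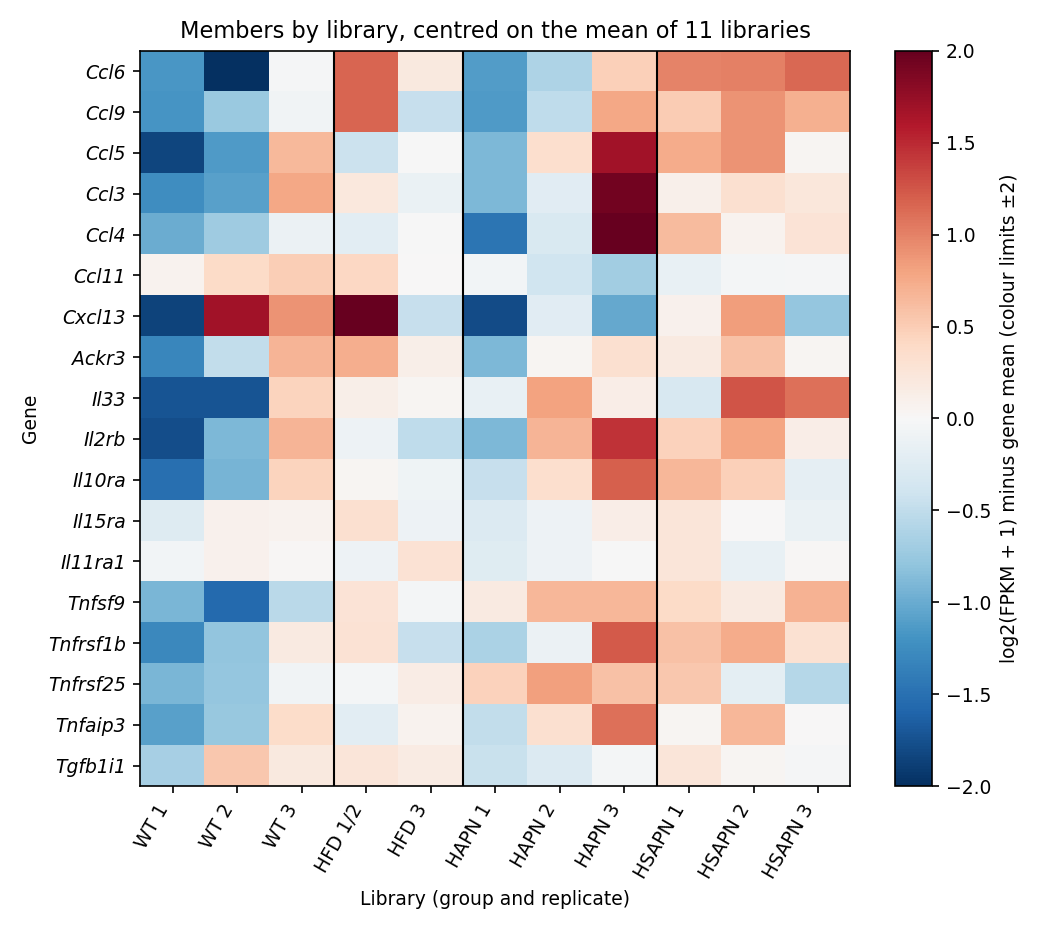
The 18 tested members (rows, by role) in the 11 distinct libraries (columns, by group), coloured by log2(FPKM + 1) minus the gene's mean over libraries. HAPN replicate 3 holds the highest value of 7 members and WT replicate 1 the lowest of 12.

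Ccl6 was the most abundant member, with a mean of 53.9 FPKM over the 11 libraries. It encodes a CC chemokine of mouse macrophages and other myeloid cells. In replicate order, Ccl6 stood at 18.6, 9.50 and 42.1 FPKM in WT, at 97.3 and 49.2 in HFD, at 19.2, 27.55 and 60.2 in HAPN and at 86.0, 87.55 and 96.1 in HSAPN. The HFD and HSAPN libraries all lay above all WT libraries, the HSAPN libraries also above all HAPN libraries, and HAPN overlapped WT. Group means were 23.4 ± 16.8 FPKM (SD, n = 3) in WT, 73.3 ± 34.0 (n = 2) in HFD, 35.7 ± 21.7 (n = 3) in HAPN and 89.9 ± 5.44 (n = 3) in HSAPN.

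Ccl9, a related chemokine that also acts on myeloid cells, lies 9.2 kb from Ccl6. Its level was 2.78, 4.13 and 7.17 FPKM in WT, 18.2 and 5.25 in HFD, 2.915, 5.05 and 13.6 in HAPN and 11.2, 14.99 and 13.1 in HSAPN. As with Ccl6, HFD replicate 1 was the highest library and HSAPN the group with the narrowest spread, here 13.1 ± 1.88 FPKM (SD, n = 3). The ratio of Ccl6 to Ccl9 in FPKM ran from 2.30 to 9.37 over libraries, with a median of 5.88. Macrophage genes matched these levels only in part. The 4 of 14 listed macrophage markers in the table (Adgre1, Cd163, C1qb and Timd4, none at 0 in any library) summed to 22.0 to 47.4 FPKM in WT, 87.0 and 30.9 in HFD, 22.7 to 60.3 in HAPN and 38.5 to 57.8 in HSAPN. HFD replicate 1, the highest library for 32.9% of all genes tested, was highest for that sum too. HSAPN did not stand apart from HAPN in the sum, most of which was C1qb. In HAPN, C1qb and Adgre1 rose with Ccl6, while Cd163 (1.31, 1.38 and 1.37 FPKM) and Timd4 (0.454, 0.594 and 0.558) varied little. In HSAPN the sum was lowest in replicate 3, where Ccl6 was highest. The part of macrophages in the levels of Ccl6 and Ccl9 was not tested.

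Of the CC chemokine members, 7 lie on chromosome 11 (GRCm38). Ccl5 (83525778 to 83530518, minus strand) is followed after 42.4 kb by Ccl9 (83572919 to 83578636, minus), then Ccl6 (83587882 to 83593087, minus), after 54.8 kb Ccl3 (83647844 to 83649355, minus) and after 13.2 kb Ccl4 (83662584 to 83664683, plus). Ccl11 (82057823 to 82062955, plus) and Ccl1 (82176657 to 82305690, minus) lie outside that stretch. The bases just upstream of the start sites are printed for Ccl6, Ccl9 and Ccl3, neighbours on the chromosome of which Ccl6 and Ccl9 were highest in HFD replicate 1 and Ccl3 in HAPN replicate 3, and for Tnfaip3, a textbook NF-kappaB target; they are RefSeq sequences on GRCm38.p6, 5′ to 3′ on the minus strand, with matches to the NF-kappaB consensus in capitals.
Ccl6, chr11:83593088-83593247: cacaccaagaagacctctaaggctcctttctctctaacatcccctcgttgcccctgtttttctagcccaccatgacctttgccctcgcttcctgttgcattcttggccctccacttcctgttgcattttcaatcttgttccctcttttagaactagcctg
Ccl9, chr11:83578637-83578796: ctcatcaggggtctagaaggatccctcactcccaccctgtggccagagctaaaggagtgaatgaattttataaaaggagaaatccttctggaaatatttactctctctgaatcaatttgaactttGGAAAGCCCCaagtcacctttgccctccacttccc
Ccl3, chr11:83649379-83649538: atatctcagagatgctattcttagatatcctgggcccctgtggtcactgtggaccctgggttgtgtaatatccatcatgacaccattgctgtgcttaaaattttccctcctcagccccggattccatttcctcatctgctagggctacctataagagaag
Tnfaip3, chr10:19015411-19015570: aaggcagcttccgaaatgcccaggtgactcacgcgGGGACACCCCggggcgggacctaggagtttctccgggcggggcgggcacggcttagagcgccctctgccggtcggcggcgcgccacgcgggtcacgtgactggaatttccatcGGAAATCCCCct

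The consensus was searched on both strands in the 250 bases upstream of each RefSeq start. Of 32851 mouse promoters, 7.25% held at least 1 match. RefSeq promoters were found for 20 of the 33 members. Tnfaip3 held 2 matches, starting 125 and 12 bases before the start site, and Ccl9 held 1, starting 35 bases before it. Ccl1 held 2 overlapping matches and the second start of Tnfrsf25 held 1. The letters TTCNNNGAA, found in 7.02% of promoters, occurred in those of Tnfrsf1b, Ifng, Il1f5 and Tnfrsf25, and GAGGAAGT, found in 2.44%, in none of the members' promoters. A match is a run of letters and not a measured binding site.

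Ccl5, which draws T cells and monocytes and is made in quantity by activated T and NK cells, had a mean of 18.1 FPKM over libraries. It stood at 3.33, 6.06 and 23.2 FPKM in WT, 10.5 and 14.3 in HFD, 7.26, 18.4 and 48.5 in HAPN and 24.8, 27.7 and 14.9 in HSAPN. All HSAPN libraries lay above both HFD libraries, and WT replicate 3 lay within the HSAPN range. The 4 of 13 listed T and NK cell markers in the table (Cd4, Cd8b1, Nkg7 and Gzmb, none at 0 in any library) summed to 3.05, 5.75 and 30.02 FPKM in WT, 12.1 and 13.9 in HFD, 6.43, 21.3 and 86.1 in HAPN and 24.7, 33.6 and 17.0 in HSAPN. Within each of the 4 groups the libraries had the same order for this sum as for Ccl5. In HFD that order rested on Nkg7 (7.22 and 9.93 FPKM), because Cd4, Cd8b1 and Gzmb were lower in HFD replicate 3. The part of these cells in the Ccl5 level was not tested.

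Ccl3 and Ccl4, chemokines released by macrophages and T cells, were low except in a few libraries. Ccl3 stood at 0.298, 0.438 and 4.22 FPKM in WT, 2.54 and 1.805 in HFD, 0.644, 1.61 and 10.65 in HAPN and 2.29, 2.83 and 2.595 in HSAPN. Ccl4 stood at 0.519, 0.847 and 1.78 FPKM in WT, 1.62 and 2.00 in HFD, 0.0934, 1.45 and 20.9 in HAPN and 3.69, 2.16 and 2.65 in HSAPN. For Ccl4 these are small read numbers, 1 read in HAPN replicate 1 and 216 reads in HAPN replicate 3, and its highest value was 223 times its lowest. HAPN thus held both the lowest and the highest of the 11 libraries. Ccl4 relative to Ccl3 in FPKM ran from 0.145 in HAPN replicate 1 to 1.96 in HAPN replicate 3, around a median of 1.02.

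Ccl11, the eotaxin that draws eosinophils through the receptor CCR3, ran the other way. Its level was 3.38, 4.445 and 4.89 FPKM in WT, 4.59 and 3.22 in HFD, 3.02, 2.18 and 1.59 in HAPN and 2.77, 3.055 and 3.12 in HSAPN. Both HAPN and HSAPN lay wholly below WT and HFD, and HFD overlapped WT. The margin was narrow, with HSAPN replicate 3 at 3.12 and HFD replicate 3 at 3.22 FPKM. Of all genes tested, 19.8% lay wholly lower in HAPN than in HFD and 14.2% in HSAPN than in HFD. Ccl24, the second eotaxin, was below the test filter, with 14, 10 and 20 reads in WT, 45 and 19 in HFD, 5, 3 and 8 in HAPN and 5, 12 and 8 in HSAPN. Its HAPN libraries had fewer reads than every WT and HFD library, and only HSAPN replicate 2 exceeded WT replicate 2. Il5, the interleukin that matures eosinophils, gave 1 to 15 reads a library and was highest in WT replicate 1. Of its exonic length, 27.1% is shared with a gene model on the opposite strand.

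Cxcl13, which draws B cells through the receptor CXCR5, varied widely within groups: 1.74, 30.6 and 17.5 FPKM in WT, 59.6 and 6.22 in HFD, 1.88, 7.47 and 3.88 in HAPN and 9.45, 16.65 and 4.82 in HSAPN. The HFD mean of 32.9 ± 37.8 FPKM (SD, n = 2) rested on HFD replicate 1. Each high-fat group overlapped WT, and HAPN and HSAPN overlapped HFD.

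Ackr3, the atypical receptor that takes up Cxcl12, stood at 2.22, 4.68 and 11.8 FPKM in WT, 12.3 and 7.63 in HFD, 3.30, 7.19 and 9.01 in HAPN and 8.03, 10.96 and 7.215 in HSAPN, with every group inside the WT range except HFD replicate 1. Ackr1, the Duffy receptor of red cells and venular endothelium, lay between 0.132 and 1.61 FPKM and below the filter, and it shares 25.7% of its exonic length with Cadm3 on the same strand. Both atypical receptors were highest in HFD replicate 1, the highest library for 32.9% of all genes tested and for 5 of the 18 tested members.

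Il33 was the most abundant interleukin, with a mean of 20.2 FPKM. It encodes an alarmin held in the nucleus of stromal and endothelial cells and released on damage. Il33 stood at 4.36, 4.36 and 23.2 FPKM in WT, 18.2 and 17.25 in HFD, 14.9, 29.99 and 18.4 in HAPN and 13.2, 41.2 and 37.2 in HSAPN. WT replicates 1 and 2 lay below all 8 high-fat libraries, which had a lowest value of 13.2, a median of 18.3 and a highest of 41.2 FPKM. WT replicate 3 lay above 5 of them.

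Il2rb, the beta chain shared by the IL-2 and IL-15 receptors of T and NK cells, stood at 0.205, 1.205 and 5.58 FPKM in WT, 2.82 and 1.88 in HFD, 1.195, 5.58 and 10.1 in HAPN and 4.64, 6.10 and 3.50 in HSAPN. Il10ra, the ligand-binding chain of the IL-10 receptor on leukocytes, stood at 3.02, 4.97 and 14.6 FPKM in WT, 10.7 and 9.71 in HFD, 7.31, 13.5 and 25.2 in HAPN and 17.2, 14.9 and 9.08 in HSAPN. Both were lowest in WT replicate 1 and highest in HAPN replicate 3, like the T and NK cell sum. The ratio of Ccl5 to Il2rb ran from 3.30 to 16.25 with a median of 4.78, while the highest Il2rb value was 49.4 times the lowest.

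Il11ra1, the IL-11 receptor chain of stromal cells, varied least, between 12.9 and 19.2 FPKM with a coefficient of variation of 12.1% over the 11 libraries. Near-identical copies of this gene exist, so its reads could be split among them. Il15ra, which presents IL-15 to neighbouring cells, lay between 3.175 and 5.32 FPKM with a coefficient of variation of 16.6%. Against these, Ccl4 had a coefficient of variation of 171%.

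Tnfsf9, the 4-1BB ligand that costimulates T cells from antigen-presenting cells, separated the diets. It stood at 1.39, 0.546 and 2.10 FPKM in WT, 4.498 and 3.42 in HFD, 4.11, 6.16 and 6.17 in HAPN and 4.93, 4.12 and 6.32 in HSAPN. Every one of the 8 high-fat libraries lay above every WT library, the lowest of them at 3.42 FPKM. In recovered reads these are 13 to 46 in WT and 73 to 141 in the high-fat libraries. The gene lies on chromosome 17 (57105325 to 57107757, plus strand), and 14.9% of its exonic length is shared with a gene model on the opposite strand. Groups accounted for 83.5% of its spread over libraries on the log2 scale, the highest share of the 18 members, whose median was 30.9% against 42.7% for all genes tested.

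Tnfrsf25, the death-domain receptor DR3 of T cells, stood at 2.41, 2.75 and 5.09 FPKM in WT, 5.25 and 6.13 in HFD, 7.85, 10.3 and 8.57 in HAPN and 8.28, 4.58 and 3.33 in HSAPN. HAPN lay wholly above WT and HFD, and HSAPN overlapped each of the other 3 groups. Tnfrsf1b, the TNF receptor TNFR2 of leukocytes and endothelium, stood at 3.80, 5.80 and 12.4 FPKM in WT, 13.4 and 7.53 in HFD, 6.60, 9.82 and 26.5 in HAPN and 16.6, 18.7 and 13.5 in HSAPN, again with WT replicate 1 lowest and HAPN replicate 3 highest.

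Tnfaip3 encodes A20, an enzyme that is induced by TNF and limits NF-kappaB signalling. It stood at 1.15, 1.69 and 4.88 FPKM in WT, 2.95 and 3.78 in HFD, 2.25, 4.68 and 8.76 in HAPN and 3.70, 6.255 and 3.585 in HSAPN. Of the 57 listed genes of cytokine signalling and feedback, Irak3, which restrains toll-like and IL-1 receptor signalling, was the only one in the table. It ran from 0.731 in WT replicate 1 to 3.85 FPKM in HFD replicate 1, and it passed the test in none of the 5 comparisons (limma adjusted p = 0.257 for high-fat against WT). Tgfb1i1 stood at 7.71 to 19.05 FPKM in WT, which spanned the other groups, and its HAPN libraries (9.15, 10.45 and 12.5 FPKM) lay below both HFD libraries (15.4 and 14.4).

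**Figure D2:**
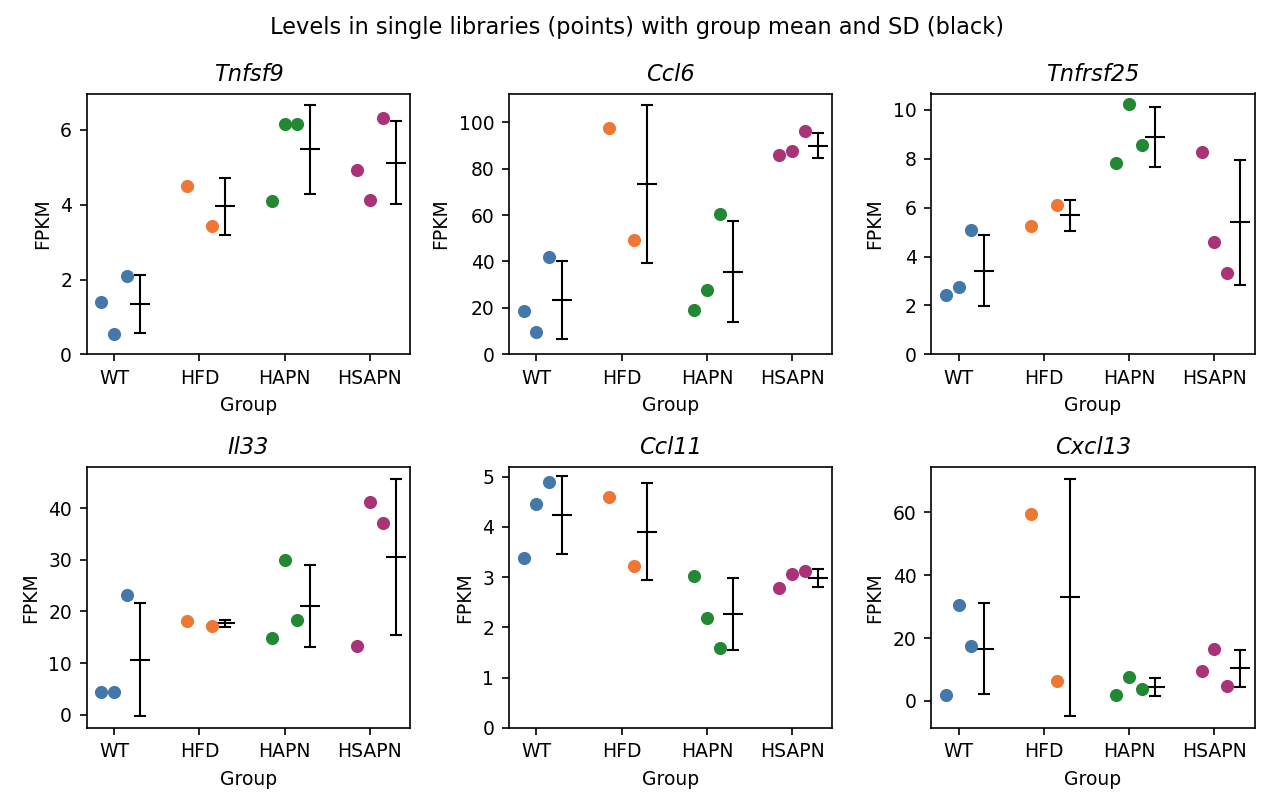
FPKM of Tnfsf9, Ccl6, Tnfrsf25, Il33, Ccl11 and Cxcl13 in the 4 groups, 1 coloured point per library, with the group mean and SD in black. Tnfsf9 has all 8 high-fat libraries above the 3 WT libraries, and the 2 HFD libraries of Cxcl13 lie at 59.6 and 6.22 FPKM.

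Of the 15 members below the filter, 13 gave reads. Il17b, an interleukin of the IL-17 family, had 4, 10 and 4 reads in WT and 6 and 6 in HFD, but 0, 1 and 1 in HAPN and 0, 0 and 1 in HSAPN. WT and HFD thus did not overlap HAPN and HSAPN: its mean was 0.356 ± 0.182 FPKM (SD, n = 3) in WT and 0.356 ± 0.0112 (n = 2) in HFD, against 0.0578 ± 0.0503 (n = 3) in HAPN and 0.0290 ± 0.0503 (n = 3) in HSAPN. Il17b was picked after its values were seen, and the share of all genes that split this way was not counted. With the filter removed, limma gave it an adjusted p of 0.346 for HAPN against HFD and 0.522 for HSAPN against HFD, and 14.5% of its exonic length is shared with a gene model on the opposite strand. Ccl1, a T cell chemokine, had 10, 8 and 4 reads in HSAPN, 2, 3 and 5 in HAPN, and 0 to 2 in WT and HFD (adjusted p = 0.522 for HSAPN against HFD, fitted the same way).

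Ifng, the type II interferon of T and NK cells, shares 25.9% of its exonic length with a gene model on the same strand. It had 26 reads in HAPN replicate 3 and 0 to 9 in each of the other 10 libraries. Cxcl11, an interferon-induced chemokine that is annotated as a polymorphic pseudogene in the mouse reference, had 74 reads in that library and 0 to 8 elsewhere, with 41.7% of its exonic length shared with a gene model on the opposite strand. Tnfsf4, the OX40 ligand that costimulates T cells, had 33 reads there and 0 to 5 elsewhere. HAPN replicate 3 was highest for 7 of the 18 tested members, against 7.47% of all genes tested. For 5 of the 13 detected members below the filter it was highest too, but the share over all genes below the filter was not counted. It was also the library with the highest T and NK cell sum, 86.1 FPKM, most of which was Nkg7 (42.8) and Gzmb (30.55). Cd8b1 stood at 8.51 FPKM there, and Cd4 at 4.17 beside 4.06 in HSAPN replicate 2. The part of those cells in the values was not tested.

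Ccl19, which guides T cells and dendritic cells, lay between 0.0711 and 1.03 FPKM and has near-identical copies in the mouse genome. Il11 and Il17rb lay between 0.179 and 0.666 FPKM in all libraries. Il13ra2 and the pseudogene Ccl19-ps3 reached at most 2 reads. The IL-36 family genes Il1f5 and Il1f6 were listed at 0 in every library, where 3 reads would be worth 0.0373 to 0.0426 FPKM for Il1f5 and 0.190 to 0.217 for Il1f6; those limits cover counting error only.

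**Figure D3:**
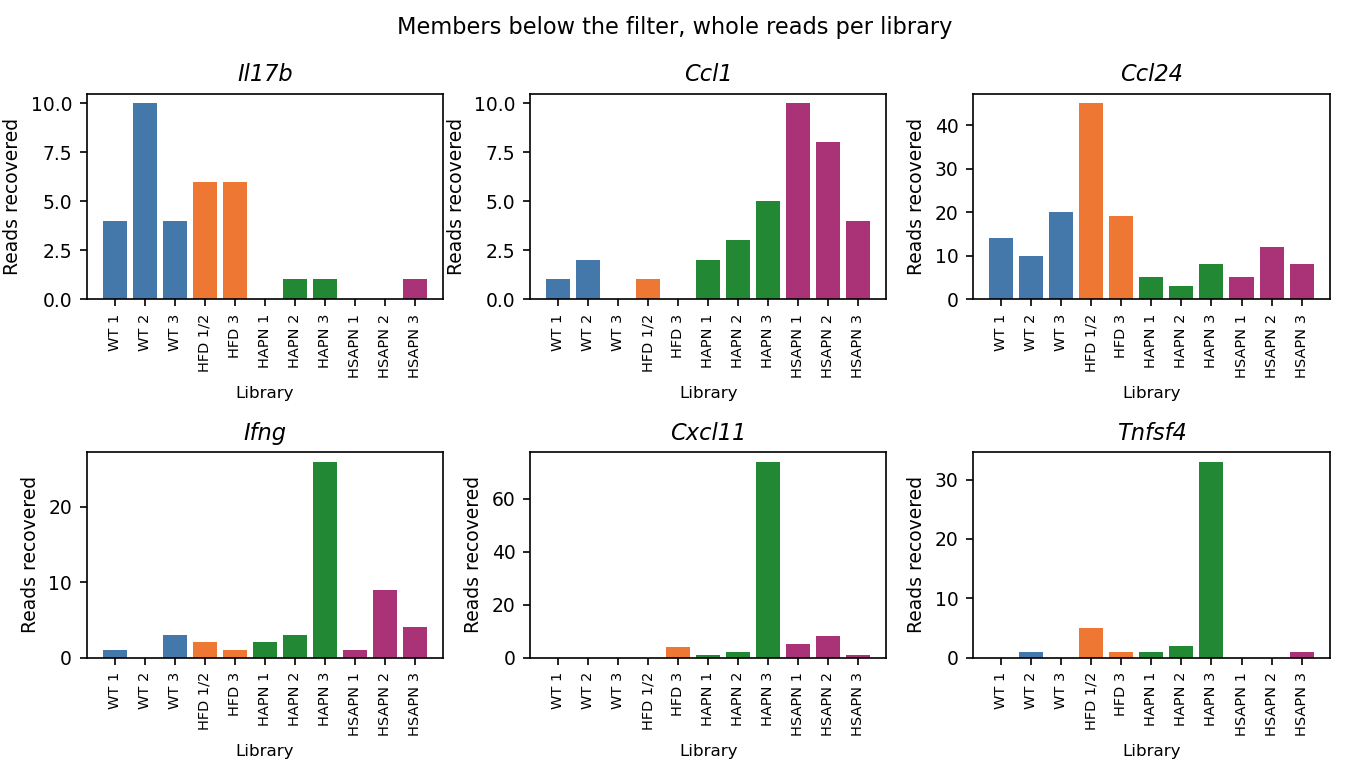
Recovered reads in each library for members below the test filter. Il17b has 4 to 10 reads in the WT and HFD libraries and 0 or 1 in HAPN and HSAPN, and Cxcl11, Tnfsf4 and Ifng are highest in HAPN replicate 3.

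The question for the diet is whether these genes differ between aortas of mice on the 2 diets. In HFD against WT, 0 of the 18 members passed the limma test at an adjusted p of 0.05, as did 0% of all 1659 genes. At an unadjusted p under 0.05 there were 2 members, Tnfsf9 and Ccl6, both higher in HFD, beside 11.4% of all genes (7.29% higher), and limma-voom on recovered reads also called 0 members. Tnfsf9 differed by 1.13 ± 0.31 (SE) on the log2(FPKM + 1) scale with an adjusted p of 0.300, higher in 2 of 2 HFD libraries. Ccl6 differed by 1.76 ± 0.60 (SE) with an adjusted p of 0.349. The groups did not overlap for 3 members, Ccl6, Tnfsf9 and Tnfrsf25, all higher in HFD, beside 12.1% of all genes. In all, 17 of the 18 members were higher in HFD, with a median log2 difference of 0.56, against 57.6% of all genes tested and a median of 0.07. The members' median was 0.21 (14 of 18 higher) without WT replicate 1 and 1.10 (17 of 18 higher) without WT replicate 3.

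When HFD, HAPN and HSAPN were set as one against WT in the same fit (8 libraries against 3), 0 of the 18 members passed, against 0.0603% of all genes. At an unadjusted p under 0.05 there were 4 members, all higher on the high-fat diet, beside 23.6% of all genes and 10.5% in that direction. Tnfsf9 differed by 1.35 (95% interval 0.83 to 1.88) with an adjusted p of 0.103 and ranked 3 of all genes by p. Ccl6 differed by 1.52 (0.51 to 2.53) with an adjusted p of 0.133, Tnfrsf25 by 0.79 with 0.139 and Il33 by 1.34 with 0.172. Tnfsf9 was the 1 member whose high-fat and WT libraries did not overlap, being higher on the high-fat diet, beside 1.75% of all genes. Ccl11 had a log2 difference of -0.39 (adjusted p = 0.215), and Il11ra1 (-0.02, and 0.09 under median-ratio scaling) and Tgfb1i1 (-0.01) lay near 0. The T and NK cell list had a median difference of 0.68 over its 4 tested genes, the macrophage list 0.21 over 4, the neutrophil and mast cell list -0.35 over 3 and the adhesion list 0.11 over 2, with 0 genes of any of these lists called in any of the 5 comparisons. Red cell genes had a larger median of 1.60 (7 of 7 higher) and platelet genes 1.10 (10 of 10 higher). Contractile smooth muscle genes stood at -1.19 (8 of 8 lower), heart muscle genes at -1.58 (2 of 2 lower) and the airway gene Bpifa1 at -3.48. Fibroblast genes stood at -0.80, and adipocyte and brown adipocyte genes at -0.66 each, near the size of the T and NK cell median. These lists of other cells also had 0 genes called. Their part in the members' values was not tested.

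The calls in this contrast turned on WT replicate 3. Without it, 5 of the 18 members passed the test, with 14.8% of the 1617 genes then tested: Ccl6 at a log2 difference of 2.05 (limma adjusted p = 0.0224), Tnfsf9 at 1.58 (0.00892), Il33 at 2.07 (0.0187), Tnfrsf25 at 1.04 (0.0368) and Il10ra at 1.44 (0.0473). Without WT replicate 1 or 2, 0 members passed. WT replicate 3 was the highest WT library for 14 of the 18 members, where it was so for 46.1% of all genes tested. It was also highest of WT for the T and NK cell, macrophage, neutrophil and mast cell, adhesion, red cell, platelet, fibroblast, adipocyte and brown adipocyte sums. Without WT replicate 1 or 2, Il33 differed by 0.98 in each case. The part of these cells in its values was not tested.

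**Figure D4:**
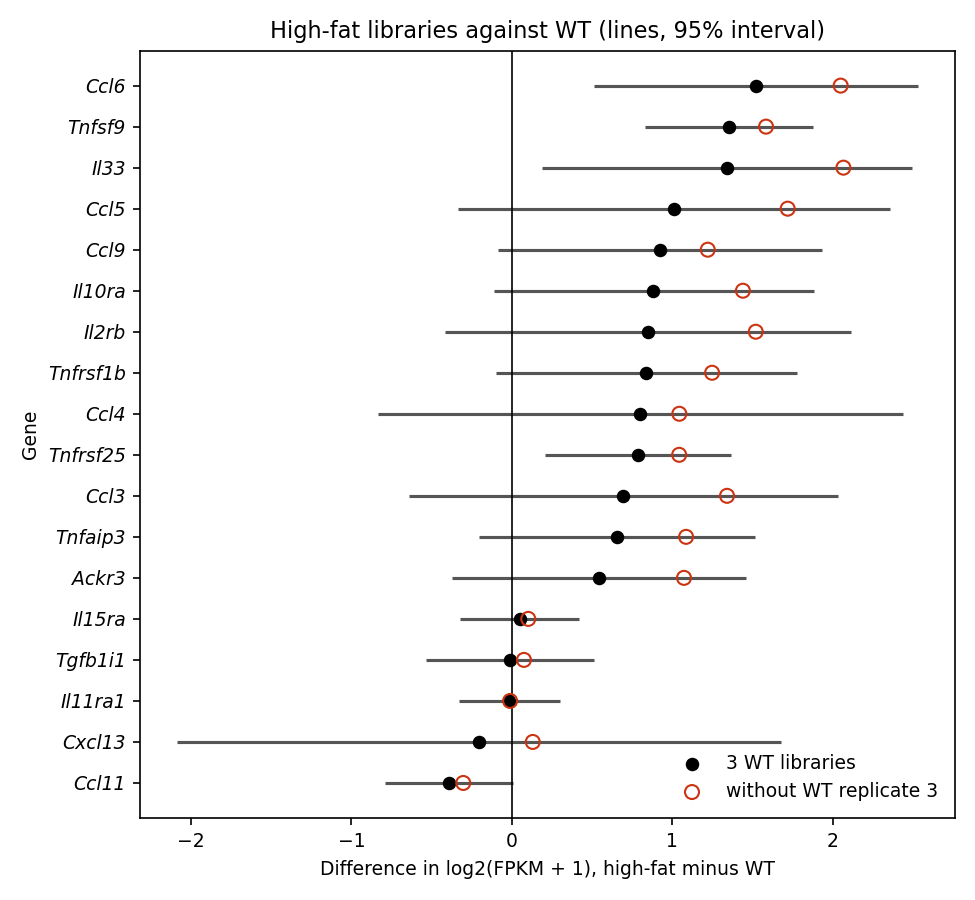
Log2 difference of the 18 members between the 8 high-fat and 3 WT libraries, with 95% intervals, beside the value without WT replicate 3. Tnfsf9, Ccl6, Il33 and Tnfrsf25 have intervals above 0 before adjustment. Of the 18 members 14 lie above 0, beside 44.6% of all genes tested, and 16 without WT replicate 3, beside 49.8%.

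HAPN and HFD share genotype and diet labels. Between them, 0 of the 18 members passed the test, against 0.181% of all genes, with 1 member at an unadjusted p under 0.05 beside 8.62% of all genes (5.97% lower). That member was Ccl11, with a log2 difference of -0.60 ± 0.24 (SE) and an adjusted p of 0.542, lower in 3 of 3 HAPN libraries. The groups did not overlap for Ccl11 and Tgfb1i1, lower in HAPN, and for Tnfrsf25, higher by 0.56 (adjusted p = 0.548), which is 3 members beside 26.3% of all genes. The 2 members with the next smallest p, Cxcl13 at -2.09 ± 1.12 (SE) and Ccl6 at -1.10 ± 0.60 (SE), had an adjusted p of 0.542 each. Members were higher in HAPN in 10 of 18 cases, where 24.9% of all genes were, and without HAPN replicate 3 in 4 of 18. The median of all genes was -0.24 in this comparison, and median-ratio scaling of the libraries brought it to -0.01, with 48.2% of all genes and 12 of 18 members then higher. Without HFD replicate 1, Cxcl13 stood at -0.56, Ccl6 at -0.61 and Ccl11 at -0.40, and without HFD replicate 3 Cxcl13 stood at -3.63. Under the scaling Ccl11 stood at -0.38.

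Between HSAPN, the APPL1 knockdown, and HAPN, 0 of the 18 members passed the test, against 0.121% of all genes. Ccl6 and Tnfrsf25 were at an unadjusted p under 0.05, which is 2 members beside 7.84% of all genes. Ccl6 was higher in HSAPN by 1.47 ± 0.54 (SE) on the log2 scale with an adjusted p of 0.519, in 3 of 3 libraries. Tnfrsf25 had a log2 difference of -0.695 ± 0.31 (SE) with an adjusted p of 0.636, and its libraries overlapped; without HSAPN replicate 3 it stood at -0.45. Ccl6 and Tgfb1i1 were the 2 members whose groups did not overlap, both higher in HSAPN, beside 9.95% of all genes. Ccl9, the neighbour of Ccl6, differed by 0.997 with an adjusted p of 0.813. HAPN replicate 3 moves several of these values: without it, Ccl9 differed by 1.53 (adjusted p = 0.340; without HAPN replicate 1, 0.575 and 0.997), and Ccl4 by 1.21 against -0.04 with it. Members higher in HSAPN were 12 of 18 with that replicate and 17 of 18 without it, beside 53.5% of all genes in each case.

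HSAPN against HFD uses libraries of both earlier comparisons, so the values are not independent of them. Here 0 of 18 members passed the test, against 0% of all genes, and 0 members were at an unadjusted p under 0.05, beside 4.04% of all genes; limma-voom on recovered reads called 0 as well. The groups did not overlap for 5 members beside 19.8% of all genes: 4 were higher in HSAPN beside 5.61% of all genes, and 1 was lower beside 14.2%. Ccl5 was higher by 0.78 and Il2rb by 0.77 on the log2 scale, Tnfrsf1b by 0.63 and Ccl4 by 0.43, each with an adjusted p of 0.886 or above, while Ccl11 differed by -0.29 (adjusted p = 0.886). Without HFD replicate 1, Tnfrsf1b differed by 1.01 and Ccl11 by -0.09, and without HFD replicate 3 by 0.25 and -0.49. Under median-ratio scaling Ccl11 differed by -0.10. The 4 T and NK cell genes were all higher as well, with a median of 0.74, and their part in these values was not tested. In all, 11 of 18 members were higher in HSAPN beside 27.1% of all genes, and 16 of 18 beside 51.2% under median-ratio scaling. Over any difference among the 4 groups at once, 0 members passed, against 0.121% of all genes, and 4 (Tnfsf9, Ccl6, Tnfrsf25 and Ccl11) had an unadjusted p under 0.05, beside 16.5% of all genes.

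**Figure D5:**
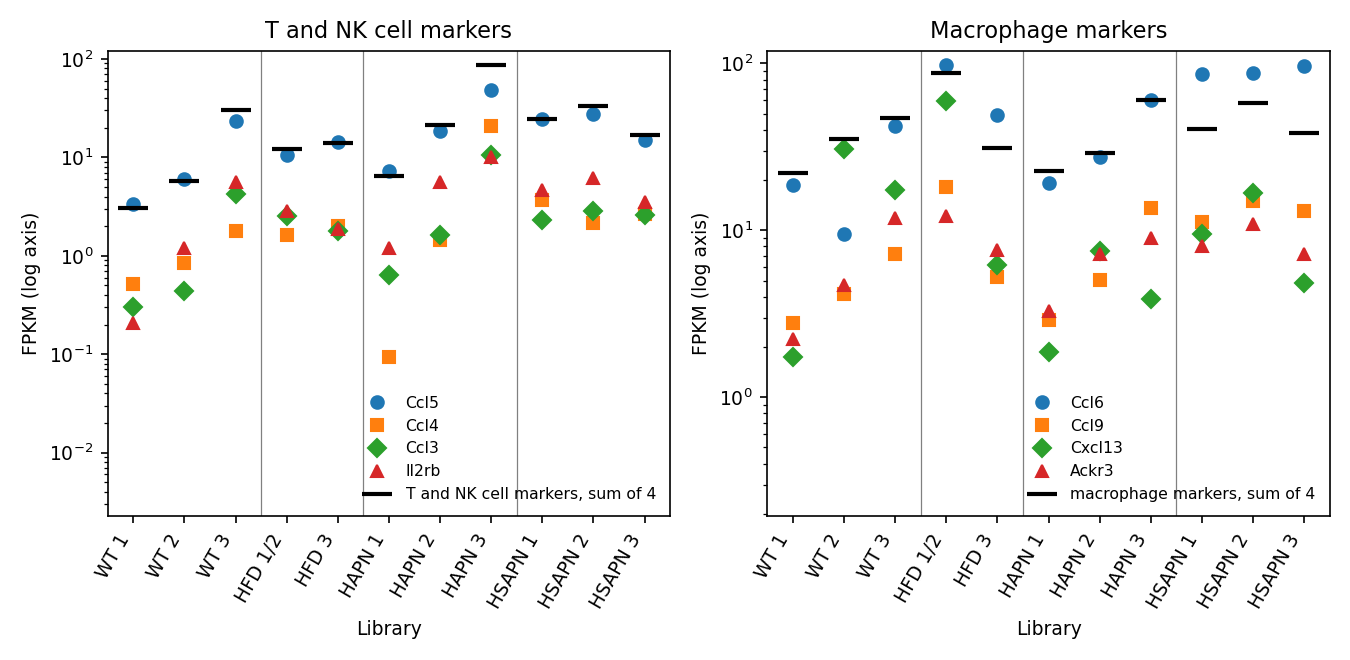
FPKM on log axes in each of the 11 libraries (HFD 1/2 is HFD replicate 1): Ccl5, Ccl4, Ccl3 and Il2rb with the summed T and NK cell markers on the left, and Ccl6, Ccl9, Cxcl13 and Ackr3 with the summed macrophage markers on the right. The T and NK cell sum is highest in HAPN replicate 3 at 86.1 FPKM, where the 4 genes beside it are highest too.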

How the data were processed

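Aorta RNA was extracted with TRIzol and made into directional libraries, per the labels' protocols, and the deposited files give 1 FPKM value per gene symbol, made by the authors. Per the submitters' processing notes, the build was GRCm38 and the tools included DESeq 1.8.3 and featureCounts 1.5.0-p3, without their roles; aligner, annotation release and strand setting: not given in the sources used here. Each file has 3534 rows. Dlg2, listed more than once, was dropped, and 4 date-like symbols name no gene in the text.

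Depth was recovered from FPKM and GENCODE M21 exonic lengths (3410 genes matched): 95.8 to 97.0% of values up to 20 reads were whole within 0.1. The limma-trend test (limma 3.58.1, R 4.3.3) was run on log2(FPKM + 1) of genes reaching 1 FPKM in 3 or more libraries, with all 4 groups in 1 fit that left 7 residual degrees of freedom, and p-values were adjusted by Benjamini-Hochberg over all genes tested. Fold differences of low genes are understated on that scale. The script was tested on simulated data. Tables were made in Python 3.11.15 with NumPy 2.4.6 and pandas 2.3.3, figures with matplotlib 3.10.9, and coordinates are those of GRCm38.

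Members named with values followed a rule: those past the threshold, the 3 smallest p in each direction of a comparison, the 3 most abundant of each role and a list of well-known names; the low-read members, and those described for 1 library, were chosen after their values were seen. Members and lists (cytokine signalling, adhesion and cell type markers) were chosen with earlier results of these data known. Alternatives covered the pseudocount, filter, scaling, limma-voom on recovered reads, array weights, the replicate number as a block, the identical files counted as 2, only the groups compared, and each library left out. The main fit treated samples with the same replicate number as unpaired.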

Additional observations from a re-analysis of the deposited data

Results flagged for a closer look

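In the 8 high-fat libraries, 2 of the 18 tested members had 1 library far from the others on the log2 scale by Dixon's test, whose critical value for 8 samples is 0.526. Chance alone marks about 1 in 20 such groups. Ccl3 had a gap of 0.568 of its range below HAPN replicate 3, at 10.65 FPKM. Ackr3 had a gap of 0.573 of its range above HAPN replicate 1, at 3.30 FPKM.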

How the results depend on the processing

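Depth and the 2 or 3 libraries per group limit these results: 15 of the 33 members were too low to test, and no member passed the test in HFD against WT, HAPN against HFD or HSAPN against HFD under any alternative run. Member calls came with array weights, where HAPN replicate 2 had a weight of 4.54. In HSAPN against HAPN 1 of 18 members was called (Ccl6, limma adjusted p = 0.0319), beside 79 of all 1659 genes. In high-fat against WT 3 of 18 were called (Tnfsf9, 0.0155, Ccl6, 0.0258, and Il33, 0.0470), beside 263 of 1659 genes. Over any of the groups 4 of 18 were called (Tnfsf9, Ccl6, Tnfrsf25, Ccl11), beside 264 of 1659 genes. With the identical files counted as 2, 1 member was called in high-fat against WT (Tnfsf9, 0.0454). Over libraries left out, members called ran from 0 to 5 in high-fat against WT and 0 to 1 over any of the groups, the highest without WT replicate 3, and were 0 elsewhere. The adjusted p of Tnfsf9 in high-fat against WT ran from 0.00892 without WT replicate 3 to 0.534 without WT replicate 2. The cause of these shifts was not tested.

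Over all genes, calls in HFD against WT (0) were 2 with no filter and 6 with the identical files as 2. In HAPN against HFD (3) they were 5 with no filter or median-ratio scaling, 10 with the identical files as 2, and 0 with the stricter filter, limma-voom, array weights or only the groups compared. In HSAPN against HAPN (2) they were 1 with no filter or limma-voom, 79 with array weights and 0 with only the groups compared. In HSAPN against HFD (0) they were 2 with no filter or the identical files as 2. In high-fat against WT (1) they were 0 with a pseudocount of 0.1, the stricter filter or median-ratio scaling, 3 with no filter, 8 with the identical files as 2 and 263 with array weights. Over any of the groups (2) they were 4 with no filter or median-ratio scaling, 0 with the stricter filter or limma-voom, 8 with the identical files as 2 and 264 with array weights. With a library left out, calls ran from 0 to 27 in HFD against WT, 0 to 6 in HAPN against HFD, 0 to 240 in high-fat against WT and 0 to 53 over any of the groups, the highest each time without WT replicate 3, and from 0 to 3 in HSAPN against HAPN or HFD.

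Correlations of deviations ran from -0.592 to 0.499 over 15 same-numbered pairs and from -0.585 to 0.592 over 30 others. Deviations within a group are tied to each other, and those of the 2 HFD libraries are mirror images. These values therefore cannot decide whether replicate numbers pair samples. With the replicate block, genes called were 0 in HAPN against HFD and 1 over any of the groups, and members called 0 in every comparison.

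Signs of log2 differences turned for several of the 18 members. Under median-ratio scaling 5 turned in HSAPN against HFD (Tnfrsf25, Il15ra, Tgfb1i1, Il11ra1 and Ackr3, to between 0.055 and 0.166), 2 in HAPN against HFD (Il15ra 0.03, Il11ra1 0.05) and 2 in high-fat against WT (Il11ra1 0.090, Tgfb1i1 0.09). Without HAPN replicate 3, 6 turned in HAPN against HFD (Ccl4 from 0.47 to -0.78) and 5 in HSAPN against HAPN. Without HFD replicate 1, 2 turned in HAPN against HFD (Ccl9 from -0.64 to 0.17), 2 in HFD against WT (Cxcl13 from 0.84 to -0.70), 3 in HSAPN against HFD and 2 in high-fat against WT. Leaving out a WT library turned 3 in HFD against WT (replicate 1) and 1 to 3 in high-fat against WT. Over all libraries left out in turn, log2 differences of named members whose sign turned ran from -0.30 to 0.11 for Ccl11 in HFD against WT, from -0.242 to 0.041 for Tnfsf9 and -0.47 to 0.33 for Tnfaip3 in HSAPN against HAPN, from -2.57 to 0.50 for Cxcl13 and -0.44 to 0.11 for Tnfrsf25 in HSAPN against HFD, and from -1.25 to 0.51 for Cxcl13 and -0.080 to 0.051 for Il11ra1 in high-fat against WT.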
